A study of Homo sapiens with 8 samples.

Results

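The CD44 locus was described by the peaks that chromatin immunoprecipitation and sequencing (ChIP-seq) placed around the gene in HuCCT1 cells, an established human line from a cancer of the bile duct (cholangiocarcinoma). Members were all peaks of the 5 deposited lists whose centre lay within 500 kb of the CD44 start, taken as position 35160417 of chromosome 11 in the hg19 build, with the gene body running to 35253949. These hg19 positions were fixed inputs, since the peak lists name no genes. The window held 72 of the 51828 peaks of the series: 50 of 38186 TEAD1 peaks, 22 of 12188 TEAD4 peaks, 0 of 847 HA-YAP5SA peaks, 0 of 454 YAP peaks and 0 of 153 TAZ peaks. The locus was chosen by its density of TEAD1 peaks, so its TEAD1 count is a description and was not tested.

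Each list came from 1 library of unreplicated HuCCT1 chromatin. The antibodies were against TEAD1, TEAD4, YAP or TAZ (the product of WWTR1), the last taken from the title of its library. For HA-YAP5SA the antibody label reads HAYAP5SA, taken here as the HA tag, which the label does not state. YAP5SA is a YAP mutant with alanines in place of the serines that LATS kinases phosphorylate. The labels do not say whether the TEAD, YAP and TAZ libraries came from cells that carried the tagged protein. Of the 8 libraries, those titled GFP, Input and IgG were not analysed here. Read depth is unknown for all lists, and intervals are exact 95% Clopper-Pearson intervals that cover counting error over peaks only. Peaks of 1 library are not replicates, so nothing below has a replicate check.

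CD44 encodes a cell surface receptor for hyaluronan, a polysaccharide of the extracellular matrix. Its pre-mRNA is spliced into a standard form and many variant forms, and its cytoplasmic tail binds ezrin and merlin, the NF2 product that acts upstream in the Hippo pathway. CD44 is widely used as a marker of stem-like cells in carcinomas. TEAD1 and TEAD4 are DNA-binding factors at the end of the Hippo pathway, and YAP and TAZ are coactivators that reach DNA mainly through TEADs.

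No list held a peak over the CD44 start. The sequence before the gene is shown as the annotated promoter of CD44. It is the 250 bases before the RefSeq start (GRCh38.p14 chr11:35138921-35139170, plus strand, all in lower case because no searched motif matched):
CD44 upstream sequence: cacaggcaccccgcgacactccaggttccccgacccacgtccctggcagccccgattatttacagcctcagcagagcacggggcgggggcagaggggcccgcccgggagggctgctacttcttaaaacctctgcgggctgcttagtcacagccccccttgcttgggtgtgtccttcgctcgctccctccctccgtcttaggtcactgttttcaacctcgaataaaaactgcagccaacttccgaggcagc
The TEAD core motif GGAATG, searched on both strands, had 0 matches there and was present in 11.9% of 35116 RefSeq upstream sequences of the same length. The AP-1 motif TGANTCA, searched on both strands, also had 0 matches and was present in 6.57% of them. The absence of a match says only that these letters are not in this stretch. The RefSeq gene in GRCh38 spans 93232 bp and the hg19 gene body used here 93533 bp, a difference of 301 bp. The printed sequence could not be placed on hg19, so its position relative to the peaks is not known. The nearest TEAD1 peak edges lay 2.92 kb before and 3.64 kb after the hg19 start.

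TEAD1 peaks surrounded CD44 on both sides. The gene body, 93.5 kb long, held 7 TEAD1 peaks and 2 TEAD4 peaks. The upstream flank held 22 TEAD1 and 13 TEAD4 peaks, and the downstream flank held 21 TEAD1 and 7 TEAD4 peaks. This is 74.8 TEAD1 peaks per Mb in the gene body, 44 per Mb upstream and 51.7 per Mb downstream. TEAD4 peaks numbered 21.4 per Mb in the gene body, 26 per Mb upstream and 17.2 per Mb downstream. TEAD1 peaks covered 5.22% of the gene body, against 3.54% of the upstream and 3.37% of the downstream flank. The median distance between neighbouring TEAD1 centres was 7.24 kb in the window, against 27.8 kb over the whole list.

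**Figure D1:**
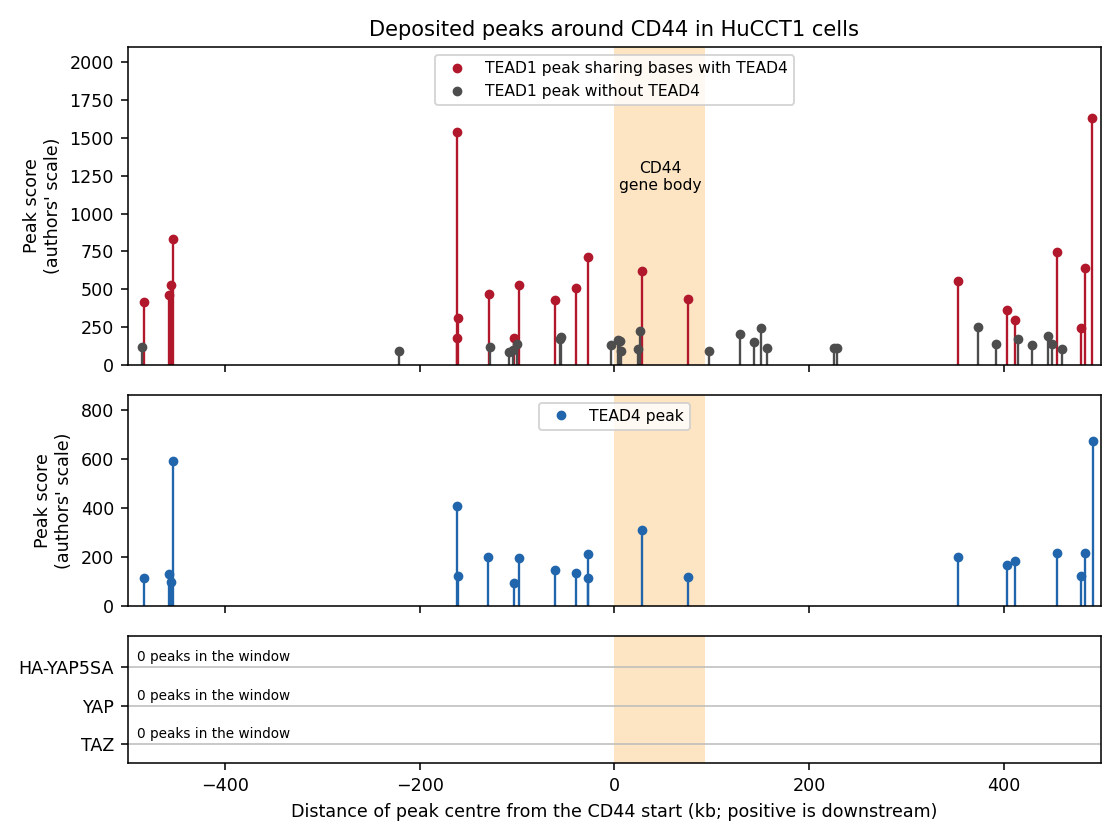
Score of each TEAD1 peak (top) and TEAD4 peak (middle) against the distance of its centre from the CD44 start in kb, with the gene body shaded and the HA-YAP5SA, YAP and TAZ lanes at the bottom. The TEAD1 peaks with scores of 1538 and 1632 lie 161 kb upstream and 491 kb downstream, and the HA-YAP5SA, YAP and TAZ lanes hold 0 peaks.

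The median scores of these peaks lay close to those of their lists, with a wide spread around them. The score is the authors' own value for a peak, on a scale that is not stated, and was used only within a list. TEAD1 peaks in the window had a median score of 186 (lowest 82.3, highest 1632), against 177 over the whole TEAD1 list. TEAD4 peaks in the window had a median score of 176 (lowest 93.4, highest 671), against 162 over the whole TEAD4 list. Of the 50 TEAD1 peaks, 28 lay above the median of their list, 10 in its ninth score decile and 6 in its highest. Their median score was 160 in the gene body, 246 in the upstream flank and 189 in the downstream flank. Of the 22 TEAD4 peaks, 12 lay above the median of their list and 2 in its highest decile. The median width of TEAD1 peaks was 658 bp in the window and 552 bp over the whole list, and that of TEAD4 peaks was 414.5 bp in the window and 352 bp over the whole list.

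Inside the gene body the TEAD1 peaks fell into 3 places. The first, in the opening 7.05% of the gene, held 3 TEAD1 peaks and no TEAD4 peak. They lay 3.95 kb (chr11:35164058-35164685, score 160), 5.75 kb (chr11:35165711-35166615, score 156) and 6.60 kb (chr11:35166688-35167337, score 91.8) after the start. All 3 were below the median of the TEAD1 list, at percentiles 44.8, 43.6 and 10.3 of its scores. The nearest upstream TEAD1 peak, 3.29 kb before the start (chr11:35156765-35157499, score 129), had no TEAD4 either. These 4 peaks around the start together spanned 10.6 kb.

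The second place in the gene body, 24.6 to 27.9 kb after the start, held the TEAD1 peak with the highest score in the gene. That peak (chr11:35188033-35188611, score 622) stood at percentile 89.8 of the TEAD1 list. A TEAD4 peak (chr11:35188083-35188646, score 309, percentile 79.7 of its list) shared 529 bp with it, and their centres were 42.5 bp apart. It was the nearest TEAD4 peak downstream of the start. Next to it lay TEAD1 peaks without TEAD4 at chr11:35186653-35187525 (score 222) and chr11:35184690-35185257 (score 103).

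The third place lay 76.1 kb after the start, 81.3% of the way through the gene body. It held 1 TEAD1 peak (chr11:35236143-35236823, score 434, percentile 82.3) and, wholly inside it, 1 TEAD4 peak (chr11:35236231-35236662, score 119, percentile 30.9). The 47.5 kb between the TEAD1 peaks of the second and the third place held no other. The exons and introns of CD44 in hg19 were not used here, so these peaks are placed by distance only.

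**Figure D2:**
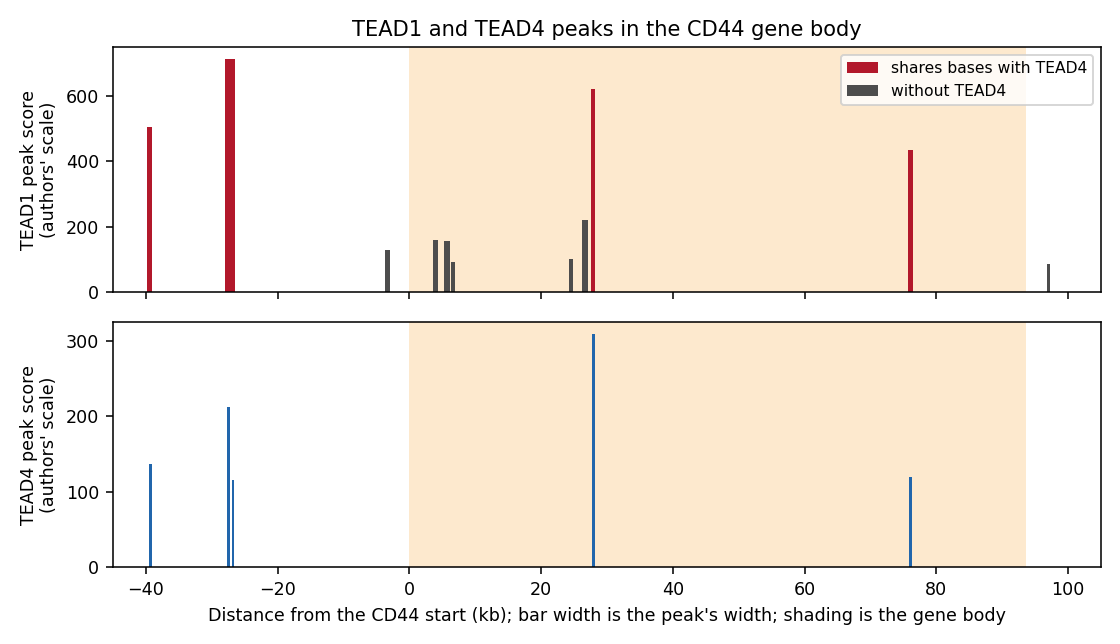
TEAD1 (top) and TEAD4 (bottom) peaks near the gene body, drawn with their widths against the distance from the CD44 start in kb, with the score as bar height. TEAD4 accompanies the TEAD1 peaks at 27.9 and 76.1 kb and none of the 3 TEAD1 peaks in the first 7.05% of the gene.

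Upstream of CD44 the TEAD peaks formed a ladder of small groups. Beyond the TEAD1 peak at 3.29 kb and 27.2 kb before the start, a single wide TEAD1 peak (chr11:35132397-35133999, 1603 bp, score 713) carried 2 separate TEAD4 peaks (chr11:35132696-35133120, score 212, and chr11:35133436-35133770, score 115). It was the widest TEAD1 peak in the window and the only one that met 2 TEAD4 peaks. At 39.4 kb upstream lay a TEAD1 peak of score 504 (chr11:35120606-35121385) with TEAD4 (score 137). A group 55.0 to 60.9 kb upstream held 3 TEAD1 peaks, of which the farthest (score 427) carried TEAD4 and the others (scores 167 and 183) did not.

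The group with the most TEAD1 peaks in the window, 5 within 10.7 kb, lay 98.2 to 108 kb upstream. Its TEAD1 scores were 525 at the end nearest CD44 (chr11:35061533-35062829), then 134, 179, 98.0 and 82.3 moving away from the gene. TEAD4 lay on the peaks of scores 525 and 179, with scores of its own of 197 and 93.4. The last value, 93.4, was the lowest TEAD4 score in the window. A pair 127 to 129 kb upstream followed, with TEAD1 scores of 471 with TEAD4 (score 199) and 117 without.

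The top TEAD1 peak upstream lay 161 kb from the start (chr11:34998537-34999577, score 1538) and ranked 388th in the TEAD1 list. A TEAD4 peak (chr11:34998533-34998918, score 407) lay on its edge. That TEAD4 peak also shared 4 bp with the adjoining TEAD1 peak (chr11:34997882-34998536, score 177), which counts as carrying TEAD4 for this reason alone. Another TEAD1 peak beside them (score 308) carried its own TEAD4 peak (score 123).

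Farther upstream peaks were sparse. A stretch of 231 kb without a TEAD1 peak, the longest in the window, ended at an isolated TEAD1 peak of score 90.4, 222 kb from CD44. Beyond it, 453 to 458 kb upstream, lay 3 TEAD1 peaks with scores of 835 (chr11:34706638-34707358), 524 and 459, and TEAD4 lay on each, with scores of 593 (chr11:34706797-34707270), 99.7 and 130. The outermost pair, 484 to 485 kb upstream, had TEAD1 scores of 416 with TEAD4 (score 115) and 119 without.

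Downstream of the gene the nearer peaks had no TEAD4. There were 7 TEAD1 peaks between 97.1 and 229 kb after the start, with scores of 88.0, 206, 147, 242, 110, 110 and 110, and no TEAD4 peak. A stretch of 123 kb without TEAD1 came next. The remaining 14 TEAD1 peaks lay 353 to 491 kb after the start, and 7 of them carried TEAD4. The 7 nearer peaks fell in score deciles where 2.20% to 30.6% of TEAD1 peaks outside the window carried TEAD4. Their lack of TEAD4 was not tested.

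The highest TEAD1 and TEAD4 scores of the window stood at its far end, 491 kb downstream. That TEAD1 peak (chr11:35650967-35652098, score 1632) ranked 297th in the TEAD1 list and its TEAD4 peak (chr11:35651422-35651991, score 671) ranked 485th in the TEAD4 list. The other downstream TEAD1 peaks with TEAD4 had scores of 745 (chr11:35614583-35615317), 638 (chr11:35643364-35644277), 551 (chr11:35512891-35513587), 360 (chr11:35563322-35564073), 298 and 241. Their TEAD4 scores were 217, 215, 201, 168, 184 and 121 in the same order. The 7 TEAD1 peaks without TEAD4 in this stretch scored between 104 and 247. In the RefSeq order of GRCh38, the protein-coding genes before CD44 are PDHX, a pyruvate dehydrogenase component, then APIP and EHF, an epithelial ETS factor. Those after it are SLC1A2, a glutamate transporter, then PAMR1 and FJX1. Distances cannot be carried between builds, so no peak was assigned to any of them.

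All TEAD4 peaks of the window met TEAD1, 22 of 22 (100%, interval 84.6 to 100%), close to the 97.1% of the whole TEAD4 list. In the other direction, 22 of the 50 TEAD1 peaks carried TEAD4 (44%, interval 30.0 to 58.7%), against 30.6% of the whole TEAD1 list. The interval includes 30.6 at its lower end, and 35.4% of TEAD1 peaks on chromosome 11 carried TEAD4. The share was 2 of 7 in the gene body (28.6%, 3.67 to 71.0%), 13 of 22 upstream (59.1%, 36.4 to 79.3%) and 7 of 21 downstream (33.3%, 14.6 to 57.0%). These intervals overlap each other.

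TEAD1 peaks with TEAD4 had the higher scores. Their median was 488 (lowest 177, highest 1632), against 132 (lowest 82.3, highest 247) for the 28 without TEAD4. Over the whole TEAD1 list the medians were 452 with TEAD4 and 136 without. In the gene body the scores were 434 and 622 with TEAD4, and 91.8 to 222 without. The groups did not overlap there. In the upstream flank the TEAD1 peaks of scores 177 and 179 with TEAD4 lay below one of score 183 without it. In the downstream flank the TEAD1 peak of score 241 with TEAD4 lay below those of scores 242 and 247 without it. The median width was 734 bp for TEAD1 peaks with TEAD4 and 596.5 bp for those without. A wider peak meets another more easily, and the part of width in these counts was not tested.

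By score decile of the TEAD1 list, all 6 window peaks in the highest decile carried TEAD4, against 97.0% of TEAD1 peaks outside the window. In the ninth decile all 10 did, against 77.6%, and in the eighth all 3 did, against 51.8%. In the seventh decile 1 of 4 did, against 30.6%, and in the sixth 2 of 5 did, against 18.5%. None of the 22 window peaks in the lower deciles carried TEAD4, where the shares outside the window ran from 2.20% to 12.1%. With the shares of each decile outside the window, the 50 TEAD1 peaks would include 18.7 with TEAD4, where 22 were found.

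**Figure D3:**
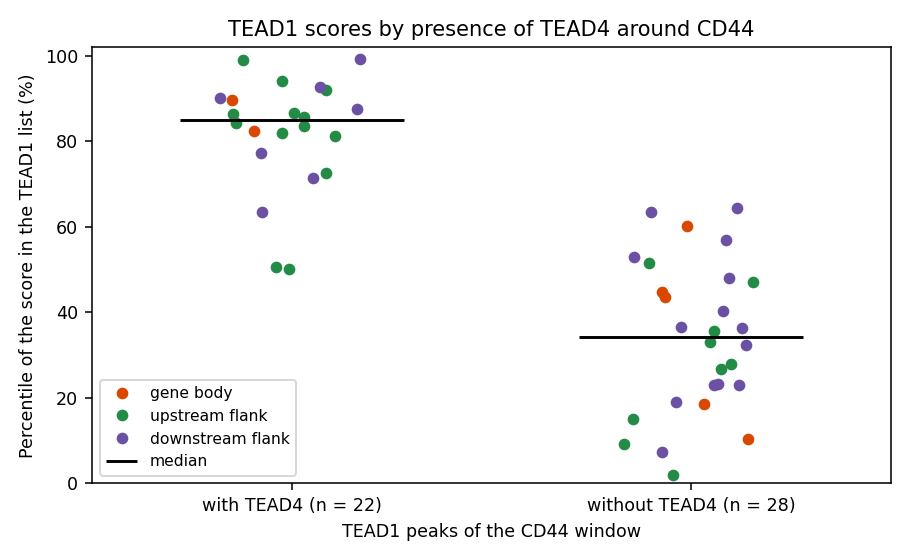
Percentile of each window peak's score within the TEAD1 list, for the 22 peaks with TEAD4 (left) and the 28 without (right), coloured by place, with the median as a line. The medians are 85.0 with TEAD4 and 34.3 without, and no peak without TEAD4 lies above 64.4.

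The paired peaks lay closely on each other. Of the 22 TEAD4 peaks, 20 were wholly inside a TEAD1 peak (90.9%, against 93.1% of TEAD4 peaks on TEAD1 in the whole list). The median distance between a TEAD4 centre and the closest TEAD1 centre was 60 bp (lowest 1.5, highest 405 bp), against 44 bp over the whole list (interquartile range 20.5 to 80 bp). The largest offset was at the wide TEAD1 peak with 2 TEAD4 peaks. The scores of the paired peaks were correlated, with a Spearman rho of 0.72 across the 22 pairs and 0.71 across the 11835 pairs of the whole list. This is across sites of the same 2 libraries, which share the cell line and its chromatin, and sites are not independent replicates. The TEAD4 peaks of the pairs had a median percentile of 54.5 in their list, and 10 of the 22 were below its median. The TEAD1 peaks of the pairs had a median percentile of 86.1, and 0 were below the median of their list. The pairs count the wide TEAD1 peak with each of its 2 TEAD4 peaks and leave out the TEAD1 peak that shared only 4 bp. With each TEAD1 peak with TEAD4 counted 1 time, the median percentile was 85.0 in the window and 83.2 in the whole list. The lists differ in length, so each percentile is to be read within its own list only, and a gap between a TEAD1 and a TEAD4 percentile has no meaning here. The TEAD1 peak of score 524 upstream stood at percentile 86.5 of the TEAD1 list, and its TEAD4 peak at percentile 17.5 of the TEAD4 list.

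**Figure D4:**
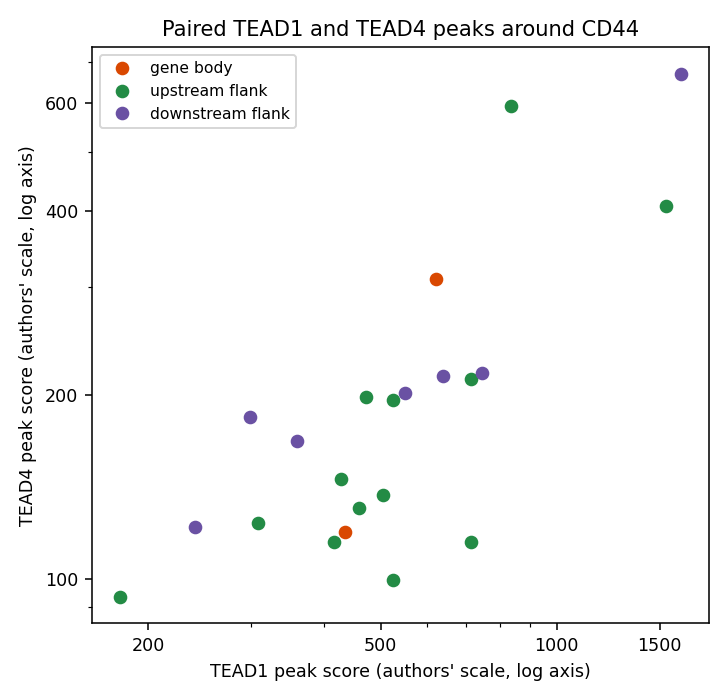
TEAD4 score against TEAD1 score, both on log axes and on the authors' scale, for the 22 TEAD4 peaks of the window and the TEAD1 peak each shares most bases with, coloured by place. The pairs at the far downstream end (1632 and 671), 453 kb upstream (835 and 593) and 161 kb upstream (1538 and 407) lie at the upper right.

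Neither tagged YAP5SA nor the YAP or TAZ antibody gave a peak in the window. HA-YAP5SA lay on 0 of the 50 TEAD1 peaks, which allows a share of up to 6% when 0 is read as at most 3 peaks (exact upper limit 7.11%), against 2.06% of the whole TEAD1 list. On the 22 TEAD4 peaks it was also 0, which allows up to 13.6% by the same reading (exact upper limit 15.4%), against 6.28% of the whole TEAD4 list. At the shares found outside the window, 1.03 of the 50 TEAD1 peaks would carry HA-YAP5SA, or 1.29 with the share of each score decile. A difference of that size was not detectable with this number of peaks. YAP lay on 0.21% and TAZ on 0% of the whole TEAD1 list, and on 0.624% and 0.0492% of the whole TEAD4 list.

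In the highest TEAD1 score decile, 0 of 6 peaks in the window carried HA-YAP5SA, against 17.3% of those outside it. With 6 peaks a count of 0 cannot be told apart from that share, and the difference was not tested. The nearest HA-YAP5SA peak lay 796 kb upstream of the start (chr11:34364787-34365033, score 107) and the next one downstream was 2.95 Mb away (chr11:38111195-38111543, score 191). Each of these overlapped both TEAD1 and TEAD4. The nearest YAP peak was 13.7 Mb from the start and the nearest TAZ peak also 13.7 Mb, and both overlapped neither TEAD1 nor TEAD4. Chromosome 11 as a whole held only 25 YAP and 4 TAZ peaks, and these distances were not compared with those of other genes.

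TEAD1 peaks were dense around CD44 when set beside the rest of the genome, which is the trait the locus was chosen for. The ratios and tile shares below describe that choice. Tiles as long as the window were laid end to end along each chromosome, and 2779 of them held a TEAD1 peak, with a mean of 13.7 and a median of 12. The CD44 window held 50, or 3.64 times that mean. Of the tiles, 8 (0.288%) held at least 50 TEAD1 peaks, and 1 of these shares bases with the CD44 window. Of tiles as long as the gene body, 16373 held a TEAD1 peak, with a mean of 2.33 against 7 in the gene body. Of these, 527 (3.22%) held at least 7. Tiles without a TEAD1 peak are left out of these means and shares, so they are not averages over the whole genome.

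The window was set beside the 7 other tiles with at least 50 TEAD1 peaks. It held 50 TEAD1 and 22 TEAD4 peaks, against 52 to 63 TEAD1 and 18 to 34 TEAD4 peaks in those tiles. It held 0 HA-YAP5SA peaks, against 1 to 4 in each of the 7 tiles (median 3). Of all 2779 tiles with a TEAD1 peak, 2161 (77.8%) held no HA-YAP5SA peak. The window also held 0 YAP and 0 TAZ peaks, as did all 8 tiles with at least 50 TEAD1 peaks. It held 6 TEAD1 peaks of the highest score decile, against 8 to 14 (median 11). The median TEAD1 score was 186 in the window, against 190 to 264 in the tiles. The difference in HA-YAP5SA was not tested, and the count of top-decile TEAD1 peaks differed alongside it.

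**Figure D5:**
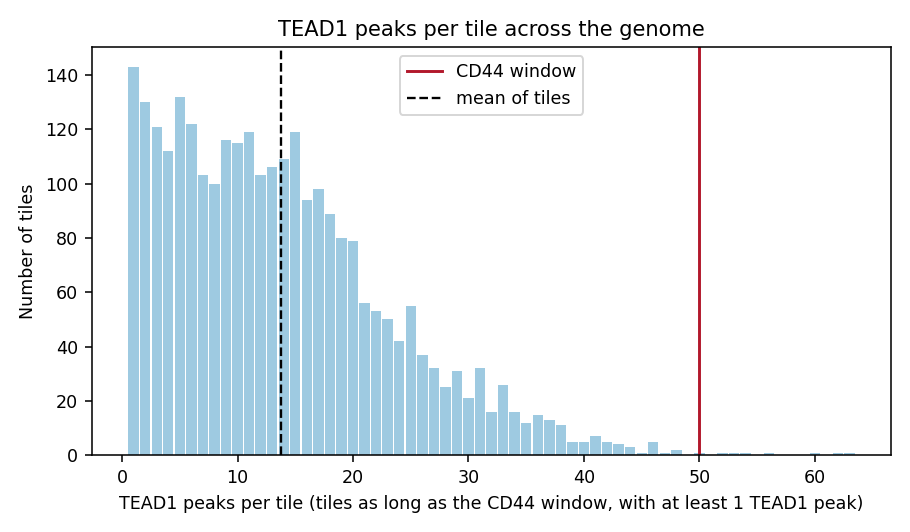
Number of tiles by the TEAD1 peaks they hold, for the 2779 tiles as long as the CD44 window with at least 1 TEAD1 peak. The CD44 window (solid line) stands at 50 and the mean of the tiles (dashed line) at 13.7.

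TEAD1 peaks of the window came in groups. With neighbours joined when their centres lay at most 10 kb apart, the 50 peaks formed 23 groups, and 34 of them (68%) were in groups of 3 or more, against 22.3% of the whole TEAD1 list. The longest group near CD44 had 5 peaks and the longest of the list 18. Grouping is another form of the density for which the locus was chosen.

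No group of TEAD1 peaks with centres at most 10 kb apart crossed an edge of the window. Just inside the upstream edge lay a TEAD1 peak of score 119, 15.1 kb from the edge, and just outside it one of score 121, 4.77 kb from the edge. Just inside the downstream edge lay the TEAD1 peak of score 1632, 8.88 kb from the edge, and just outside it one of score 296, 28.6 kb from the edge, with TEAD4. The nearest TEAD4 peaks outside the window had scores of 187 upstream and 137 downstream.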

How the data were processed

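ChIP-seq peak lists of 5 HuCCT1 libraries were used as deposited, in hg19 coordinates. The submitters' processing notes name Bowtie2, with no version, and the build hg19. Peak names in the deposited files begin with MACS. Which caller version, threshold and control library produced a list is not given in the sources used here. The score of each peak is the authors' own deposited value, on a scale that is not stated, and it was used only to rank peaks within a list. A list reflects antibody, depth, control and threshold together, so list sizes do not count binding sites.

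Starts were raised by 1 in lists with no header, so starts are uncertain by 1 bp. Peaks sharing at least 1 bp counted as overlapping. No test was run: the locus, its window and the comparisons were chosen with earlier results of these data known, and peaks of 1 library are not replicates. Where 0 peaks were found, up to 3 were taken as allowed. Peaks named are all those in the gene body, the 5 highest-scoring TEAD1 and TEAD4 peaks of each flank, and those nearest the start and the edges. Other flank peaks were added afterwards to describe each group, as were the decile shares and the set of dense tiles. Likeness to other genes needed an hg19 annotation, which was not used here. The promoter sequence is from RefSeq (GRCh38.p14). The overlap count was checked on simulated data. Calculations ran in Python 3.11.15 with SciPy 1.17.1, pandas 2.3.3 and NumPy 2.4.6, and figures were drawn with matplotlib 3.10.9.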

Additional observations from a re-analysis of the deposited data

How the results depend on the processing

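Of 82 alternative values for 16 results, 72 stayed within 1.5 times the count or within the interval of the share or median, and 10 moved. Counts of 0 that remained 0 are among those that stayed. For the median TEAD1 score in the gene body the interval was the full range of its 7 scores, 91.8 to 622. Its change from 160 to 434 at the score threshold therefore counted as staying. Counts in the window followed its size and the score threshold. A window of 250 kb on each side held 31 TEAD1 and 11 TEAD4 peaks, and one of 1000 kb held 88 TEAD1 peaks, 40 TEAD4 peaks and 1 HA-YAP5SA peak. Without the peaks that scored under their list's median, the window held 28 TEAD1 and 12 TEAD4 peaks, the gene body 3 TEAD1 peaks and 1 TEAD4 peak, and the median TEAD1 score in the window was 430. The share of TEAD1 peaks with TEAD4 was 42% when at least 50% of the shorter peak had to be shared, since the overlap of 4 bp was then lost. It was 35.5 to 46.4% over all its alternatives. The 46.4% is 13 of 28, with the TEAD1 and the TEAD4 list both held to their medians. A threshold on TEAD1 alone would keep all 22 TEAD1 peaks with TEAD4 among the 28. Their lowest score was 177.44 and the TEAD1 median 177.35. The share is therefore not stable to that choice. Including 5 kb before the start, an alternative chosen after the data were seen, gave 8 TEAD1 peaks in the gene body. Against chromosome 11 alone the window held 3.05 times the mean number of TEAD1 peaks per tile with a TEAD1 peak. No paired analysis was possible because each antibody had 1 library. The unknown depth of the HA-YAP5SA, YAP and TAZ libraries limits what their empty lanes can show.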

Other observations

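CD44 lies in a stretch of chromosome 11 without HA-YAP5SA, which by definition ends at the nearest HA-YAP5SA peak on each side. Between the HA-YAP5SA peaks on either side of the gene, 3.75 Mb apart, the lists held 106 TEAD1 peaks and 45 TEAD4 peaks, of which 11 TEAD1 peaks were in the highest score decile. Chromosome 11 as a whole had 63 HA-YAP5SA peaks, and 2.95% of its 2067 TEAD1 peaks carried one. The stretch was picked out after its values were seen and was not compared with others of its length.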
